A study of Mus musculus with 34 samples.

Results

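Genes for voltage-gated sodium and calcium channels and for potassium channels were followed through all RNA-seq libraries of mouse CAD cells. This catecholaminergic line leaves the cell cycle and grows processes when serum is taken away. Genes were taken by symbol (the potassium channel names starting Kcn, the sodium channel names starting Scn, and the calcium channel names Cacna1, Cacna2d, Cacnb and Cacng), without antisense or overlapping transcripts, where the 28 libraries held at least 10 counts in total. Of 136 symbols with such names, 4 were antisense or overlapping transcripts and 50 had fewer than 10 counts, which left 82 members among 37310 gene identifiers. Just inside the minimum stood Cacna2d3 and Kcnh1 with 10 counts each, Cacng1 with 12 and Kcnh5 with 14. Just outside it stood Kcnk15 and Kcnj10 with 9 counts each and Kcnj6 and Kcna5 with 7 each.

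The libraries come from 3 experiments. The first set cells labelled mir-138 DKO (a double knockout of the loci for miR-138) against wild-type (WT) cells, both 1 day after serum withdrawal and in 10% serum, with 2 libraries a group. The second set WT cells at 4 days after withdrawal against WT cells in serum, with 3 libraries a group. The third used cells labelled DKO alone, with 2 libraries a group: miR-138 mimic, miR-137 mimic and the plasmid pUC19, each at 2 days after withdrawal and in serum, and cells in serum that name no transfection. The dose of each mimic was 3 nM, and 48 h passed between transfection and the removal of serum. The label that gives the genotype of the 4-day libraries reads mir-138 DKO, against their titles and the design text, which say WT. They were used as WT. Titles of the second experiment's libraries read WT_2. Those of the cells with no named transfection read DKO_2, against DKO for the mimic and pUC19 libraries. What these labels mean is not explained. For pUC19 against no named transfection, an effect of transfection cannot be told apart from a difference that goes with the title label. The mimics were set against plasmid DNA, and no group names a control small RNA. Against pUC19, an effect of a mimic's sequence cannot be told apart from one of small RNA against plasmid. Nor can it be told apart from a change in the pUC19 cells. How many DKO clones were sequenced, and whether replicates were separate cultures, is not stated, so p-values reflect only how far such libraries vary, which may be technical. A difference between DKO and WT cannot be told apart from one between clones.

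Voltage-gated sodium and calcium channels share a large pore-forming subunit that opens on depolarisation, and smaller subunits that set its number at the membrane and its gating. Potassium channels return the membrane to rest: the voltage-gated pores assemble from subunits of one family, inward rectifiers and two-pore-domain channels hold the resting potential, and other channels open on calcium or sodium in the cell. In catecholaminergic neurons these genes together give action potentials, pacemaking and calcium entry for transmitter release. The mimics copy mature miRNAs, which pair with target mRNAs mainly through the seed, bases 2 to 8, shown here in capitals since the pair of mimics differ in it. Both sequences are from RefSeq, build GRCm38.p6.
mmu-miR-138-5p: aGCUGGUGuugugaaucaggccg
mmu-miR-137-3p: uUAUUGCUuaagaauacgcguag
The mouse gene Mir138-1 holds the first at chr9:122682898-122682920 and Mir137 holds the second at chr3:118433901-118433923, both on the plus strand. Mir138-2 holds the first as well, at chr8:94324312-94324334 on the plus strand.

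Promoter windows, from 250 bases before to 50 after an annotated start, were on hand for 60 of the 82 members, in 85 windows (RefSeq, GRCm38.p6). Those of Kcnc1 and Kcnh4, which were at or near 0 counts in DKO-labelled cells, and of Kcnmb2, which was at or near 0 in WT cells, are shown with the GC box GGGCGG (either strand) in capitals. In the window of Kcnh6 the capitals also mark TTCAGCACC, the left part of the element bound by the repressor REST.
Kcnc1: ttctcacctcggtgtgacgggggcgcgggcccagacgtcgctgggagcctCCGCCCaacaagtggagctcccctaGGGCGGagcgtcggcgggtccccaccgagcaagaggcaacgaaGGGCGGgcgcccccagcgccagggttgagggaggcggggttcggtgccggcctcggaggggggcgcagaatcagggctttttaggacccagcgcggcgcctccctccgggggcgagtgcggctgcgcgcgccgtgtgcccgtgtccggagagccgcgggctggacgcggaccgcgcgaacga
Kcnh4: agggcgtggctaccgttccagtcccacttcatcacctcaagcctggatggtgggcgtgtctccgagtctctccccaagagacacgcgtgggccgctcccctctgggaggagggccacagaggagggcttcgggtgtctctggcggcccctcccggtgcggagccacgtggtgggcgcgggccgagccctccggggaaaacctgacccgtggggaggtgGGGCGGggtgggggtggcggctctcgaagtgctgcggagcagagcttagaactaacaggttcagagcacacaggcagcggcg
Kcnmb2: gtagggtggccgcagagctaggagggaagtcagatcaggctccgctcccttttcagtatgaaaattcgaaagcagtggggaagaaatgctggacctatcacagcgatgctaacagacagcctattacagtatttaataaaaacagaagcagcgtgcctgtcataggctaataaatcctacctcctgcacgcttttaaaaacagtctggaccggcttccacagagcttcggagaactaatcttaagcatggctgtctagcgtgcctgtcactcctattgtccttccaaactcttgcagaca
Kcnh6: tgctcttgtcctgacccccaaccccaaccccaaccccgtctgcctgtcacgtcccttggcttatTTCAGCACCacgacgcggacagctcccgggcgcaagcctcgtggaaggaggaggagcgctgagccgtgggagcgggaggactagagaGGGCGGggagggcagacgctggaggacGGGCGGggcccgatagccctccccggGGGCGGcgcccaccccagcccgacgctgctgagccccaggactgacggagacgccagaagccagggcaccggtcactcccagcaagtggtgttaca
These lie at chr7:46396218-46396517, plus strand, for Kcnc1; chr11:100759729-100760028, minus strand, for Kcnh4; chr3:31902453-31902752, plus strand, for Kcnmb2; and chr11:106007898-106008197, plus strand, for Kcnh6. They hold 3 GC boxes in Kcnc1, 1 in Kcnh4, 0 in Kcnmb2 and 3 in Kcnh6. A GC box was in 40 of the 85 member windows (47.1%) and in 35.7% of all 32851 windows of that length. TATAAA was in 4 member windows (4.71%), against 13.6% of all. TGACGTCA, the element of cAMP response, was in 0 member windows, against 1.79% of all. TTCAGCACC was in 1 member window, against 0.371% of all. No motif overlapped another in the windows shown. Median GC content was 59.7% over member windows and 52.7% over all windows.

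Libraries held between 12740836 and 41505181 reads assigned to genes, and levels are CPM, counts per 1e6 reads scaled within an experiment. Levels are compared across libraries of 1 gene, never between genes. Reads at Mir138-1 went against the genotype label in the first experiment. In serum they came to 5.93 and 7.73 CPM in DKO-labelled and 0.686 and 0.558 CPM in WT cells. In the third experiment, scaled apart, the DKO-labelled serum groups had means of 1.07 to 1.48 CPM. WT cells of the second had means of 0.712 CPM in serum and 1.51 CPM at 4 days. Mir138-2 had 0 counts in every RNA-seq library, WT included, so its reads say nothing of the genotype. Whether the Mir138-1 reads lie in the deleted part is not given, so the groups are called DKO-labelled. The summed level of 10 neuronal and catecholaminergic markers was 284 to 285 CPM in DKO-labelled and 1899.7 to 1964 CPM in WT cells in serum. At 1 day it was 389.9 to 392 CPM in DKO-labelled and 4412 to 4531 CPM in WT cells. In the second experiment it was 8060.0 to 10239.6 CPM in WT cells at 4 days and 2175 to 2251 CPM in serum. Th, the rate-limiting enzyme of catecholamine synthesis, was at 0 in DKO-labelled cells in serum of the first experiment. In the DKO-labelled serum groups of the third experiment all 10 markers had counts. Their sum there was 254 to 257 CPM with no named transfection and 189 to 194 CPM with pUC19. It was 125 to 127 CPM with the miR-138 mimic and 271 to 277 CPM with the miR-137 mimic. At 2 days it was 499.8 to 505 CPM with pUC19, 299 to 352 CPM with miR-138 and 572 to 585 CPM with miR-137. In serum 6 fibroblast markers summed to 8.15 to 8.80 CPM in DKO-labelled and 1.46 to 1.49 CPM in WT cells of the first experiment. In the second experiment that sum was 7.31 to 8.98 CPM in WT cells at 4 days and 0.559 to 1.55 CPM in serum. It was 37.1 to 38.1 CPM in DKO-labelled cells at 2 days with the miR-138 mimic and 26.2 to 28.2 CPM with pUC19. Of the fibroblast markers Col3a1 was at 0 in every group. In serum of the first experiment 3 endothelial markers summed to 10.3 to 14.9 CPM in DKO-labelled and 20.1 to 23.2 CPM in WT cells. There 6 astrocyte and oligodendrocyte markers summed to 4.56 to 5.07 CPM and 9.21 to 12.5 CPM, in that order. The sum of 6 muscle markers was at most 0.573 CPM in any library, that of 3 Schwann cell markers 2.86 CPM and that of 2 blood markers 2.29 CPM. The part of these markers in the results below was not tested, and in bulk RNA fewer cells of a type and less RNA per cell cannot be told apart. The pair of DKO-labelled serum libraries of the first experiment differed more than the other pairs of that experiment, by a chi-square per degree of freedom of 25.2, against 5.56 to 7.11. In the second experiment the pairs of 4-day libraries had 28.4, 24.7 and 13.6, against 8.63 to 9.94 for the pairs in serum.

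DKO-labelled cells had lower RNA of most measured channel genes than WT cells, in both serum conditions. In serum, 34 of 61 members tested were lower in DKO-labelled cells and 4 were higher, against 21.5% lower and 19.2% higher over all genes. At 1 day 38 of 61 were lower and 4 higher, against 23% and 21.9% over all genes. The share of members called lower was 55.7% in serum and 62.3% at 1 day, and 29 and 35 of these fell by at least 1 on the log2 scale. The median log2 fold change over tested members was -1.44 in serum and -1.65 at 1 day, against -0.01 and 0.01 over all genes. Genes were tested with edgeR's quasi-likelihood test at a false discovery rate of 0.05. The other 21 members passed no filter on low counts in the first experiment. A member with counts in 1 genotype alone could pass through it, so the counts describe the tested members only. With 8 members in serum set to the bound that a count of 0 allows, the median was -1.42. Of the calls, 30 of 38 in serum and 32 of 42 at 1 day held under every alternative and without any single library.

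Serum withdrawal went with higher channel RNA, and most widely in WT cells at 4 days. At 4 days 45 of 59 tested members were higher and 2 lower, against 36.2% and 34.7% of all genes, and their median log2 fold change was 1.36, against 0.04 over all genes. A member with counts at 4 days alone could pass the filter on low counts, so these counts too describe the tested members only. At 1 day in WT cells 20 of 61 were higher and 3 lower, against 20.4% and 20.3% of all genes. In DKO-labelled cells at 1 day 13 were higher and 6 lower, against 19.9% and 20.4% of all genes, so the share higher, 21.3%, was near the background. The difference between the genotypes' changes, tested as an interaction, was higher for 1 and lower for 6 members, against 5.36% and 4.37% of all genes. In the third experiment, with 44 members tested, 2 days without serum went with 19 members higher and 9 lower in pUC19 cells (background 28.4% and 31.3%). With the miR-138 mimic 23 were higher and 7 lower (background 31.1% and 32.2%), and with the miR-137 mimic 22 were higher and 1 lower (background 33.2% and 32.6%). The 1-day counts depend on single libraries. In WT cells 23 calls became 15 without WT serum replicate 2 and 14 without WT 1-day replicate 1, and in DKO-labelled cells 19 became 11 without DKO 1-day replicate 2. The 7 interaction calls became 2 without DKO 1-day replicate 2, 12 without DKO serum replicate 1, and 4 without WT serum replicate 2 or either WT 1-day library.

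**Figure D1:**
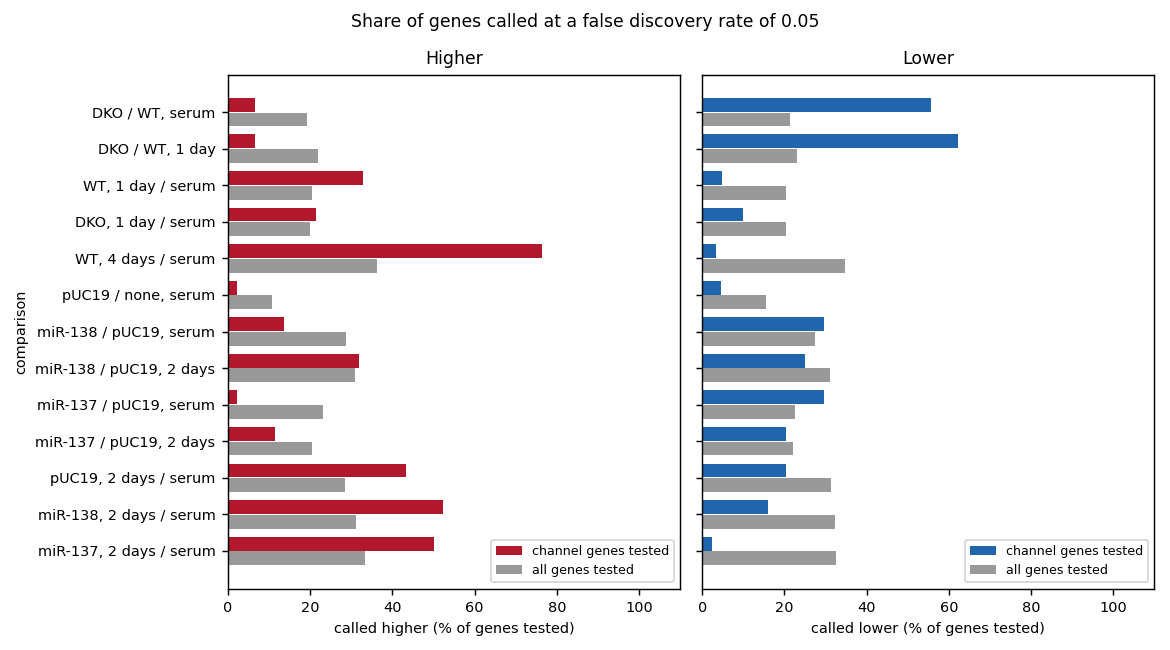
Share of genes called higher (left) and lower (right) in each comparison, in % of the genes tested, for channel genes (coloured bars) and all genes (grey bars). The widest gaps are in the DKO-labelled over WT comparisons, with 55.7% and 62.3% of channel genes lower, and in WT cells at 4 days, with 76.3% higher.

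Against pUC19 members differed in both directions with each mimic, though with miR-137 in serum only 1 was higher. In serum 13.6% of tested members were higher and 29.5% lower with miR-138, and 2.27% and 29.5% with miR-137. At 2 days the shares were 31.8% and 25% with miR-138 and 11.4% and 20.5% with miR-137. The share called higher was below that of all genes, save with miR-138 at 2 days. The miR-138 mimic against pUC19 left 6 of 44 members higher and 13 lower in serum (background 28.7% and 27.3%), and 14 higher and 11 lower at 2 days (background 30.9% and 31.1%), which is near the background. The miR-137 mimic left 1 higher and 13 lower in serum (background 23.1% and 22.5%), and 5 higher and 9 lower at 2 days (background 20.5% and 22.2%). Set against each other, the miR-138 mimic was above the miR-137 mimic for 14 members and below it for 8 in serum (background 32.7% and 30.7%), and above it for 18 and below it for 9 at 2 days (background 30.8% and 30.8%). The mimic's effect differed between 2 days and serum for 11 members with miR-138, 8 upwards and 3 downwards (background 13.3% and 14.5%), and for 10 with miR-137, upwards in each (background 11.9% upwards and 11.4% downwards). pUC19 against no named transfection gave 1 member higher and 2 lower (background 10.7% and 15.5%). Without pUC19 serum replicate 1 the 3 calls for pUC19 became 1. The mimic comparisons share their pUC19 libraries, so values are set side by side without a measure of likeness.

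**Figure D2:**
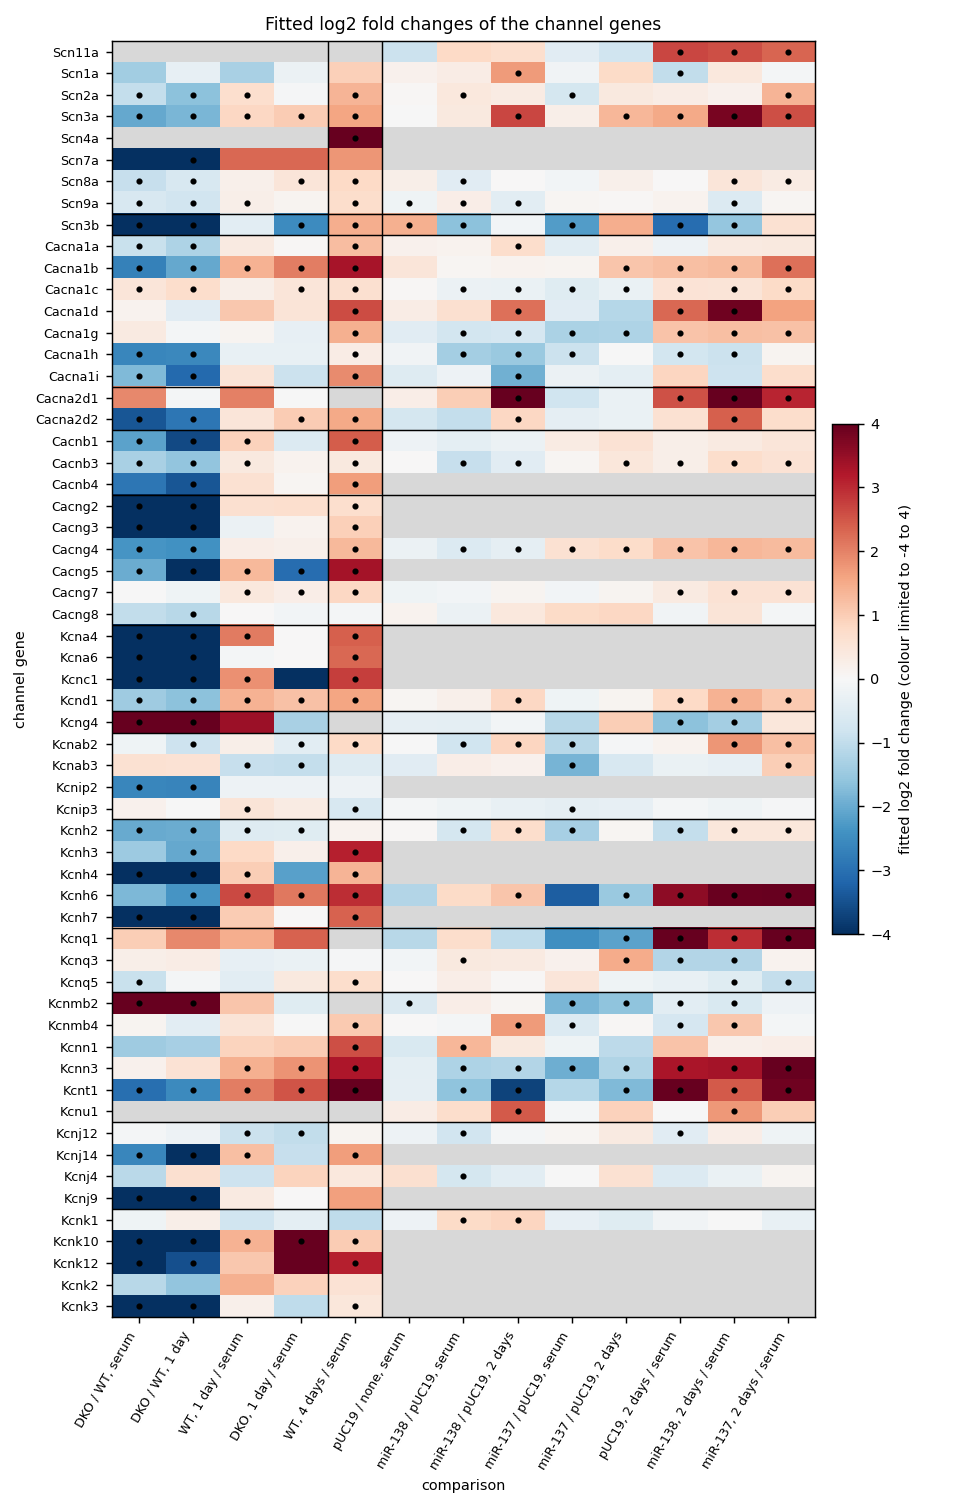
Fitted log2 fold changes of the channel genes (rows, by role) in 13 comparisons (columns), red for higher and blue for lower in the first-named group, with dots on genes called at a false discovery rate of 0.05 and grey for genes not tested. Colours stop at -4 and 4, and a fitted value against a group with 0 counts is no bound. The 2 columns of DKO-labelled over WT are mostly blue and the WT 4-day column mostly red, while the mimic columns hold both colours.

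Of 10 sodium channel pores, 4 of 7 tested were lower in DKO-labelled cells in serum, and 5 at 1 day. At 4 days 6 of 8 tested were higher in WT cells. These counts, like those of the other classes, stand beside 21.5% of all genes lower in serum, 23% lower at 1 day and 36.2% higher at 4 days. Scn3a, a pore of embryonic brain, had 5.66 and 4.09 CPM in DKO-labelled and 20.8 and 19.8 CPM in WT cells in serum (log2 fold change -2.04 ± 0.18, adjusted p = 4.42e-07). Scn3a had 8.99 and 11.1 CPM in DKO-labelled and 39.6 and 32.4 CPM in WT cells at 1 day (log2 fold change -1.84 ± 0.17, adjusted p = 6e-07). It was higher after withdrawal in each genotype, with log2 fold changes at 1 day of 1.03 in DKO-labelled and 0.83 in WT cells.

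Among the other sodium pores, Scn9a, a channel of sympathetic and sensory neurons, was also lower in DKO-labelled cells and higher at 4 days. Scn9a had 92.4 and 87.7 CPM in DKO-labelled and 141 and 138 CPM in WT cells in serum (log2 fold change -0.63 ± 0.07, adjusted p = 5.36e-06). Scn9a had 122, 149.6 and 129 CPM at 4 days and 92.5, 77.4 and 75.9 CPM in serum in the second experiment (log2 fold change 0.70 ± 0.10, adjusted p = 2.57e-05). Scn8a, the pore of nodes and axon initial segments, had 16.4 and 18.2 CPM in DKO-labelled and 33.4 and 31.7 CPM in WT cells in serum (log2 fold change -0.91 ± 0.11, adjusted p = 1.75e-05). Scn2a, another axonal pore, had 4.31 and 4.09 CPM in DKO-labelled and 8.04 and 8.28 CPM in WT cells in serum (log2 fold change -0.95 ± 0.19, adjusted p = 0.0011). At 1 day the Scn2a difference was 3.73 and 4.46 CPM in DKO-labelled against 13.3 and 12.5 CPM in WT cells (log2 fold change -1.65 ± 0.19, adjusted p = 6.81e-06). In all of these the lowest WT library stood above the highest DKO-labelled one. Scn4a, the skeletal muscle pore, was tested at 4 days only, where it had 0.556, 0.897 and 0.505 CPM in WT cells at that time and 0, 0 and 0 CPM in serum (at least 15.2-fold higher, adjusted p = 0.000671). Scn4a falls outside the rule for named genes and was chosen after its values were seen. Scn1a had at most 1.37 CPM in the first experiment and passed no genotype test. Scn7a, a sodium sensor more than a voltage-gated pore, had 0 and 0.0317 CPM in DKO-labelled and 0.532 and 0.481 CPM in WT cells at 1 day (30.8-fold lower, exact 95% counting interval 5.04 to 1264, adjusted p = 0.0262). Scn7a lost that call without WT 1-day replicate 1, WT 1-day replicate 2, DKO 1-day replicate 1 or DKO 1-day replicate 2 (log2 fold change -6.89 to -3.84, adjusted p = 0.112 to 0.198). Scn11a, another sensory neuron pore, had at most 0.221 CPM in the first experiment. Scn10a, of the same neurons, was under the filter everywhere, with 15 counts over all libraries.

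Of the sodium channel beta subunits, which bind the pore and cell adhesion partners, Scn3b had one of the wider genotype gaps. It had 1.37 and 1.25 CPM in DKO-labelled and 25.8 and 21.6 CPM in WT cells in serum (log2 fold change -4.17 ± 0.21, adjusted p = 9.23e-10). Scn3b had 0.170 and 0.285 CPM in DKO-labelled and 16.2 and 18.8 CPM in WT cells at 1 day (log2 fold change -6.23 ± 0.28, adjusted p = 2.39e-10). It was lower at 1 day than in serum in DKO-labelled cells (log2 fold change -2.50 ± 0.35, adjusted p = 7.51e-05). WT cells did not pass the threshold (log2 fold change -0.43 ± 0.17, adjusted p = 0.0506). The interaction did (difference of log2 fold changes -2.07 ± 0.40, adjusted p = 0.005). Both DKO-labelled libraries at 1 day stood below both in serum. At 4 days Scn3b had 76.8, 47.6 and 51.9 CPM, against 20.8, 23.4 and 20.8 CPM in serum (log2 fold change 1.44 ± 0.16, adjusted p = 2.53e-06).

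Calcium channel pores carry the calcium that triggers transmitter release, gene responses and low-threshold firing. In DKO-labelled cells 4 of 7 tested pores were lower and 1 higher in serum. At 1 day 4 were lower and 1 higher. At 4 days 7 of 7 tested were higher in WT cells. Cacna1b, the N-type pore of nerve terminals, had 7.53 and 2.88 CPM in DKO-labelled and 36.2 and 34.6 CPM in WT cells in serum (log2 fold change -2.71 ± 0.24, adjusted p = 5.81e-07). At 1 day it had 22.1 and 23.0 CPM in DKO-labelled and 96.1 and 90.4 CPM in WT cells (log2 fold change -2.05 ± 0.21, adjusted p = 2.4e-06). It was thus higher after withdrawal in both genotypes, by 2.06 ± 0.24 in DKO-labelled and 1.40 ± 0.21 in WT cells on the log2 scale. The DKO-labelled libraries at 1 day still stood below WT libraries in serum. At 4 days its 3 libraries had 209, 209.8 and 206 CPM, against 21.4, 22.2 and 19.9 CPM in serum (log2 fold change 3.30 ± 0.08, adjusted p = 2.89e-12).

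Cacna1h, a T-type pore that opens at low voltage, had 31.0 and 22.1 CPM in DKO-labelled and 172 and 153 CPM in WT cells in serum (log2 fold change -2.60 ± 0.13, adjusted p = 6.99e-10). Cacna1h had 20.6 and 23.1 CPM in DKO-labelled and 136 and 127 CPM in WT cells at 1 day (log2 fold change -2.59 ± 0.13, adjusted p = 8.77e-10). The groups stood far apart at either time, and neither genotype changed past the threshold from serum to 1 day. Cacna1a, the P/Q-type pore of central terminals, had 5.93 and 4.95 CPM in DKO-labelled and 9.76 and 10.4 CPM in WT cells in serum (log2 fold change -0.89 ± 0.18, adjusted p = 0.00158). Cacna1a had 26.0, 22.1 and 25 CPM in WT cells at 4 days against 8.64, 10.9 and 11.5 CPM in serum (log2 fold change 1.24 ± 0.16, adjusted p = 8.76e-06).

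Cacna1c, an L-type pore, was the other way round, with 61.3 and 68.5 CPM in DKO-labelled and 40.3 and 38.9 CPM in WT cells at 1 day (log2 fold change 0.71 ± 0.14, adjusted p = 0.00101). In serum it had 53.9 and 38.4 CPM in DKO-labelled and 37.5 and 29.5 CPM in WT cells (log2 fold change 0.47 ± 0.14, adjusted p = 0.0185). Cacna1c lost that call without WT serum replicate 2 or DKO serum replicate 1 (log2 fold change 0.19 to 0.30, adjusted p = 0.215 to 0.235). Cacna1g, another T-type pore, passed no genotype test. In the second experiment it had 8.04, 10 and 12 CPM at 4 days against 3.98, 3.35 and 4.01 CPM in serum (log2 fold change 1.41 ± 0.24, adjusted p = 0.000118). Cacna1d, an L-type pore of pacemaking cells, had at most 0.741 CPM in the first experiment with no genotype call. Cacna1f was under the filter, with 23 counts in all. Cacna1i, the remaining T-type pore, had 0.907 and 0.249 CPM in DKO-labelled and 2.36 and 1.70 CPM in WT cells in serum (log2 fold change -1.75 ± 0.59, adjusted p = 0.0274). The serum call was lost without WT serum replicate 1 or DKO serum replicate 2 (log2 fold change -1.5 to -1.15, adjusted p = 0.0941 to 0.138), and the log2 fold change was -3.01 without DKO serum replicate 1 and -1.15 without DKO serum replicate 2. At 1 day Cacna1i had 0.271 and 0.380 CPM in DKO-labelled and 3.5 and 2.26 CPM in WT cells (log2 fold change -3.12 ± 0.64, adjusted p = 0.00107).

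Accessory calcium subunits, which carry the pore to the membrane, were also lower with the DKO label. In serum 1 of 2 tested alpha2delta subunits, 2 of 3 beta subunits and 4 of 6 gamma subunits were lower in DKO-labelled cells, and 0 were higher. Cacna2d2, the alpha2delta subunit of cerebellar neurons, had 0.441 and 0.926 CPM in DKO-labelled and 7.28 and 6.85 CPM in WT cells in serum (log2 fold change -3.42 ± 0.33, adjusted p = 1.18e-06). Cacnb3, a beta subunit found with N-type pores, had 96.2 and 81.3 CPM in DKO-labelled and 215 and 221 CPM in WT cells (log2 fold change -1.29 ± 0.08, adjusted p = 7.27e-09). Cacnb1, known best from skeletal muscle, had 4.00 and 2.56 CPM in DKO-labelled and 16.9 and 12.4 CPM in WT cells in serum (log2 fold change -2.13 ± 0.21, adjusted p = 2.07e-06). At 1 day Cacnb1 had 2.44 and 2.15 CPM in DKO-labelled and 28.0 and 27.8 CPM in WT cells (log2 fold change -3.60 ± 0.23, adjusted p = 1.11e-08). Cacnb1 had 92.1, 73.3 and 82.3 CPM at 4 days against 13.9, 14.7 and 17.4 CPM in serum (log2 fold change 2.43 ± 0.12, adjusted p = 9.1e-10). Its WT libraries were higher at 1 day than in serum and its DKO-labelled ones were not. The interaction was past the threshold (difference of log2 fold changes -1.47 ± 0.31, adjusted p = 0.00834). Cacnb1 lost that call without WT serum replicate 2 or DKO 1-day replicate 2 (difference -1.35 to -1.26, adjusted p = 0.0527 to 0.0627). Cacnb4 had 0.0339 and 0.0950 CPM in DKO-labelled and 0.266 and 1.19 CPM in WT cells at 1 day (log2 fold change -3.41 ± 1.20, adjusted p = 0.0317). Cacnb4 lost that call without WT 1-day replicate 2, DKO 1-day replicate 1 or DKO 1-day replicate 2 (log2 fold change -4.23 to -1.96, adjusted p = 0.128 to 0.439). Cacna2d1 was low in the first experiment, at most 0.463 CPM, and passed no genotype test. Cacna2d3 and Cacnb2 were under the filter.

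Gamma subunits include the transmembrane AMPA receptor regulatory proteins, and 4 of these stood out by genotype. Cacng2, or stargazin, had 0 and 0.0712 CPM in DKO-labelled and 4.99 and 6.70 CPM in WT cells in serum (204-fold lower, exact 95% counting interval 56.1 to 1694, adjusted p = 3.65e-07). Cacng2 had 0.102 and 0 CPM in DKO-labelled and 8.99 and 9.41 CPM in WT cells at 1 day (188-fold lower, exact 95% counting interval 63.8 to 913, adjusted p = 1.42e-07). Cacng3 had 0.0490 and 0.320 CPM in DKO-labelled and 16.2 and 12.5 CPM in WT cells in serum (log2 fold change -6.43 ± 0.44, adjusted p = 3.26e-08). Cacng4 had 9.66 and 7.33 CPM in DKO-labelled and 46.8 and 41.2 CPM in WT cells (log2 fold change -2.36 ± 0.14, adjusted p = 4.24e-09). Cacng5 had 0.102 and 0 CPM in DKO-labelled and 3.72 and 4.74 CPM in WT cells at 1 day (87.0-fold lower, exact 95% counting interval 29.4 to 425, adjusted p = 7.83e-06). Its fitted log2 fold change, -6.31, was -9.97 without DKO 1-day replicate 1, where its counts were 0. In the second experiment Cacng5 had 24.4, 11.4 and 13.7 CPM in WT cells at 4 days and 1.65, 1.19 and 2.11 CPM in serum (log2 fold change 3.33 ± 0.32, adjusted p = 5.87e-07). Cacng7, by contrast, had 49.8 and 49.7 CPM in DKO-labelled and 52.0 and 49.4 CPM in WT cells in serum with no genotype call (log2 fold change -0.03 ± 0.08, adjusted p = 0.837). It was higher at 4 days (log2 fold change 0.83 ± 0.08, adjusted p = 7.48e-07). Cacng1, the skeletal muscle gamma subunit, was under the filter.

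Of 8 voltage-gated potassium pores of the Shaker, Shab, Shaw and Shal families, 6 of 6 tested were lower in DKO-labelled cells in serum. At 4 days 5 of 6 were higher in WT cells. Kcnc1, a Shaw pore of fast-firing neurons, had 0 and 0.534 CPM in DKO-labelled and 7.28 and 5.02 CPM in WT cells in serum (log2 fold change -4.75 ± 0.58, adjusted p = 2.34e-05). One DKO-labelled library had 0 counts and the other 15. The fitted value was -10.52 without DKO serum replicate 2. With DESeq2 the serum call was lost (adjusted p = 0.0671). At 1 day Kcnc1 had 0 counts in both DKO-labelled libraries and 20.6 and 23.2 CPM in WT cells (at least 449-fold lower, adjusted p = 2.29e-07). At 4 days it had 43.3, 33.6 and 30.9 CPM in WT cells and 5.53, 6.75 and 3.66 CPM in serum (log2 fold change 2.75 ± 0.21, adjusted p = 5.33e-08). Kcnd1, a Shal pore of fast inactivating current, had 2.51 and 3.17 CPM in DKO-labelled and 9.39 and 8.44 CPM in WT cells at 1 day (log2 fold change -1.65 ± 0.26, adjusted p = 0.000113). For Kcnd1 the groups did not overlap.

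Kcna4, a Shaker pore of inactivating current, had 0 counts in every DKO-labelled library of the first experiment. In WT cells it had 2.08 and 2.30 CPM at 1 day (at least 44.8-fold lower, adjusted p = 0.000136) and 0.610 and 0.434 CPM in serum (at least 11.8-fold lower, adjusted p = 0.00215). Kcna6, of the same family, had 0 counts in the same DKO-labelled libraries and 0.572 and 0.589 CPM in WT cells in serum (at least 13.3-fold lower, adjusted p = 0.00361). Kcng4, a silent subunit that modifies Shab channels, was the reverse. It had 2.50 and 1.57 CPM in DKO-labelled cells and 0 counts in WT cells in serum (at least 41.3-fold higher, adjusted p = 0.000472). At 1 day Kcng4 had 0.305 and 1.36 CPM in DKO-labelled and 0.0886 and 0 CPM in WT cells (21.1-fold higher, exact 95% counting interval 5.56 to 179, adjusted p = 0.0101). Kcng4 lost the 1-day call without WT 1-day replicate 2 or DKO 1-day replicate 2 (log2 fold change 2.82 to 3.18, adjusted p = 0.0949 to 0.146), and the log2 fold change was 7.71 without WT 1-day replicate 1. Kcnc4 was under the filter everywhere, with 49 counts, as was Kcna7.

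In DKO-labelled cells 1 of 4 tested potassium accessory subunits were lower and 0 higher in serum, a share near the 21.5% of all genes called lower. At 1 day 2 were lower and 0 higher, against 23% and 21.9% of all genes. Kcnab2, a cytoplasmic beta subunit of Shaker channels, had 41.1 and 38.9 CPM in DKO-labelled and 69.0 and 72.5 CPM in WT cells at 1 day (log2 fold change -0.82 ± 0.11, adjusted p = 1.98e-05). Kcnab2 had 56.9 and 49.3 CPM in DKO-labelled and 66.3 and 54.1 CPM in WT cells in serum with no call (log2 fold change -0.18 ± 0.10, adjusted p = 0.198). The interaction was past the threshold (difference of log2 fold changes -0.65 ± 0.15, adjusted p = 0.0139). Kcnab2 lost that call without WT serum replicate 2, WT 1-day replicate 1, WT 1-day replicate 2 or DKO 1-day replicate 2 (difference -0.65 to -0.50, adjusted p = 0.058 to 0.101). Kcnab2 was lower at 1 day than in serum in DKO-labelled cells (log2 fold change -0.41 ± 0.11, adjusted p = 0.00685). That call was lost without DKO 1-day replicate 2 (log2 fold change -0.35, adjusted p = 0.0845). Kcnab3 was lower at 1 day than in serum in each genotype (log2 fold change -0.95 ± 0.30, adjusted p = 0.0231 in DKO-labelled and log2 fold change -0.91 ± 0.33, adjusted p = 0.0387 in WT cells). The Kcnab3 call in DKO-labelled cells was lost without DKO serum replicate 1, DKO 1-day replicate 1 or DKO 1-day replicate 2 (log2 fold change -0.95 to -0.76, adjusted p = 0.0775 to 0.103). That in WT cells was lost without WT serum replicate 1 or WT 1-day replicate 2 (log2 fold change -0.61 to -0.51, adjusted p = 0.288 to 0.337). Kcnip3, a calcium-binding Shal partner also known as the repressor DREAM, had 8.86, 7.37 and 7.24 CPM at 4 days and 9.65, 12.4 and 14.6 CPM in serum (log2 fold change -0.64 ± 0.20, adjusted p = 0.0124). Kcnip3 lost that call without WT serum replicate 3 (log2 fold change -0.53, adjusted p = 0.0532). Kcnip2, another Shal partner, had 0.343 and 0 CPM in DKO-labelled and 0.953 and 1.39 CPM in WT cells in serum (log2 fold change -2.62 ± 0.96, adjusted p = 0.0421). Kcnip2 lost that call without WT serum replicate 1, WT serum replicate 2 or DKO serum replicate 2 (log2 fold change -2.88 to -1.76, adjusted p = 0.103 to 0.213). Kcnab1, Kcne2, Kcne3 and Kcne4 were under the filter, with 18 to 33 counts each.

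EAG-type channels, which include the ERG channels of slow repolarisation, were lower in 3 of 5 tested members in serum and in 5 of 5 at 1 day in DKO-labelled cells. At 4 days 4 of 5 were higher in WT cells. Kcnh4, an ELK-type pore of forebrain, had 0 and 0.0356 CPM in DKO-labelled and 7.09 and 6.82 CPM in WT cells in serum (478-fold lower, exact 95% counting interval 85.3 to 18931, adjusted p = 2e-08). At 1 day it had 0 counts in both DKO-labelled libraries and 13.3 and 14.1 CPM in WT cells (at least 280.4-fold lower, adjusted p = 3.57e-09), so no level was shared. Kcnh2, the ERG channel of heart and neuroendocrine cells, had 22.7 and 20.1 CPM in DKO-labelled and 86.4 and 86.6 CPM in WT cells in serum (log2 fold change -2.01 ± 0.10, adjusted p = 4.97e-10). It was lower after 1 day in both genotypes (log2 fold change -0.48 ± 0.10, adjusted p = 0.00144 in DKO-labelled and log2 fold change -0.51 ± 0.09, adjusted p = 0.0004 in WT cells). At 4 days it passed no test (log2 fold change 0.13 ± 0.11, adjusted p = 0.275). Kcnh6, a second ERG channel, had 14.9, 8.08 and 7.38 CPM at 4 days and 1.83, 0.447 and 1.72 CPM in serum (log2 fold change 2.94 ± 0.44, adjusted p = 4.33e-05). At 1 day it was already higher in WT cells, with 3.19 and 3.07 CPM against 0.534 and 0.465 CPM in serum (log2 fold change 2.64 ± 0.63, adjusted p = 0.00379). Kcnh7, the other ERG channel, had 0 counts in DKO-labelled cells and 1.24 and 1.26 CPM in WT cells at 1 day (at least 25.5-fold lower, adjusted p = 0.00192). The Kcnh7 call was lost with unstranded counts (adjusted p = 0.0526). Kcnh3 had 6.59, 4.68 and 6.30 CPM at 4 days and 0.503, 0.186 and 1.38 CPM in serum (log2 fold change 3.10 ± 0.54, adjusted p = 0.000153). Kcnh1 and Kcnh5 were under the filter.

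KCNQ channels include the pores of the M current, which restrains repeated firing. Kcnq3 had 10.8 and 7.01 CPM in DKO-labelled and 8.58 and 6.76 CPM in WT cells in serum, and passed no genotype test (log2 fold change 0.23 ± 0.23, adjusted p = 0.453). In the second experiment Kcnq3 had 3.94, 5.10 and 3.64 CPM at 4 days and 5.03, 4.21 and 3.75 CPM in serum (log2 fold change -0.04 ± 0.29, adjusted p = 0.913). Kcnq5, another neuronal KCNQ channel, had 2.67 and 2.49 CPM in DKO-labelled and 4.96 and 4.68 CPM in WT cells in serum (log2 fold change -0.90 ± 0.26, adjusted p = 0.0121). Kcnq5 lost that call without WT serum replicate 1 (log2 fold change -0.85, adjusted p = 0.0637). It had 8.21, 7.23 and 6.5 CPM at 4 days and 3.52, 3.39 and 6.59 CPM in serum (log2 fold change 0.70 ± 0.29, adjusted p = 0.0454), with overlapping groups. Kcnq5 lost the 4-day call without WT serum replicate 1, WT serum replicate 2, WT 4-day replicate 1, WT 4-day replicate 2 or WT 4-day replicate 3 (log2 fold change 0.50 to 0.78, adjusted p = 0.0588 to 0.185).

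Channels opened by calcium or sodium held the steepest fitted rise in WT cells among members with counts in both groups. Kcnt1, the sodium-activated Slack channel, had 242, 279 and 242 CPM in WT cells at 4 days and 14.4, 10.7 and 12.8 CPM in serum (log2 fold change 4.33 ± 0.11, adjusted p = 4.11e-12). In the first experiment it had 2.01 and 1.32 CPM in DKO-labelled and 13 and 14.8 CPM in WT cells in serum (log2 fold change -3.03 ± 0.18, adjusted p = 6.32e-09). Kcnt1 had 9.77 and 9.72 CPM in DKO-labelled and 58.8 and 55.4 CPM in WT cells at 1 day (log2 fold change -2.55 ± 0.15, adjusted p = 4.01e-09). Both genotypes were higher at 1 day, by 2.51 ± 0.18 in DKO-labelled and 2.03 ± 0.14 in WT cells on the log2 scale. The interaction passed no threshold. Kcnn3, an SK channel opened by calcium, had 13.7 and 10.4 CPM at 1 day and 4.22 and 2.56 CPM in serum in DKO-labelled cells (log2 fold change 1.81 ± 0.26, adjusted p = 7.76e-05). In WT cells it had 8.24 and 7.96 CPM at 1 day and 3.55 and 2.54 CPM in serum (log2 fold change 1.42 ± 0.27, adjusted p = 0.000713). Kcnn3 had 11.7, 19.1 and 17.8 CPM at 4 days against 0.549, 1.94 and 2.63 CPM in serum in the second experiment (log2 fold change 3.23 ± 0.38, adjusted p = 4.36e-06). Kcnn3 passed no genotype test. Kcnmb2, a subunit that inactivates large-conductance calcium-activated channels, had 1.94 and 1.74 CPM in DKO-labelled and 0.0762 and 0 CPM in WT cells in serum (54.3-fold higher, exact 95% counting interval 14.7 to 454, adjusted p = 0.000549). Kcnmb2 had 1.46 and 1.20 CPM in DKO-labelled and 0 and 0.148 CPM in WT cells at 1 day (log2 fold change 4.00 ± 0.93, adjusted p = 0.00292). Its fitted log2 fold change was 8.81 without WT serum replicate 1 in serum and 8.33 without WT 1-day replicate 2 at 1 day, the WT library left then having 0 counts. Kcnmb4, the neuronal partner of the same channels, passed no genotype test. Their pore gene Kcnma1 was under the filter with 46 counts over all libraries, as was Kcnn4 with 145. Kcnn1, another SK channel, was higher at 4 days (log2 fold change 2.58 ± 0.69, adjusted p = 0.0045). Its log2 fold change was 4.73 without WT serum replicate 1.

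Two-pore-domain channels carry resting leak current, and 3 of 5 tested were lower in DKO-labelled cells in serum. Kcnk3, the acid-sensitive channel TASK, had 0.172 and 0.641 CPM in DKO-labelled and 40.9 and 37.8 CPM in WT cells in serum (log2 fold change -6.73 ± 0.30, adjusted p = 2.93e-10). Kcnk3 had 0.305 and 0.0633 CPM in DKO-labelled and 42.0 and 48.2 CPM in WT cells at 1 day (log2 fold change -7.93 ± 0.34, adjusted p = 1.64e-10). No DKO-labelled library reached 1 CPM. Kcnk10, a mechanically gated relative, had 0 counts in DKO-labelled cells and 1.91 and 2.26 CPM in WT cells in serum (at least 48.3-fold lower, adjusted p = 1.55e-05). Kcnk10 had 0.339 and 0.0950 CPM in DKO-labelled and 4.61 and 6.33 CPM in WT cells at 1 day (log2 fold change -4.65 ± 0.57, adjusted p = 1.84e-05). It was higher at 1 day than in serum in WT cells (log2 fold change 1.39 ± 0.45, adjusted p = 0.025). Kcnk10 lost that call without WT serum replicate 1, WT serum replicate 2, WT 1-day replicate 1 or WT 1-day replicate 2 (log2 fold change 1.14 to 1.58, adjusted p = 0.0663 to 0.238). Kcnk12, a channel that is silent alone, had 0 counts in DKO-labelled cells and 0.953 and 0.651 CPM in WT cells in serum (at least 18.1-fold lower, adjusted p = 0.00318). Kcnk12 had 3.89, 2.41 and 1.48 CPM at 4 days against 0.366, 0.261 and 0.258 CPM in serum (log2 fold change 3.12 ± 0.59, adjusted p = 0.000325). Kcnk1 and Kcnk2 passed no genotype test, and Kcnk4 and Kcnk13 were under the filter. Among the inward rectifiers, which hold the resting potential, Kcnj14 had 0.662 and 1.21 CPM in DKO-labelled and 4.96 and 6.11 CPM in WT cells in serum (log2 fold change -2.60 ± 0.33, adjusted p = 1.89e-05). Its interaction was past the threshold (difference of log2 fold changes -2.14 ± 0.50, adjusted p = 0.0148). Kcnj14 lost that call without WT serum replicate 1, WT 1-day replicate 1, DKO 1-day replicate 1 or DKO 1-day replicate 2 (difference -2.32 to -1.84, adjusted p = 0.0519 to 0.0922). Kcnj12, which was lower at 1 day in DKO-labelled (log2 fold change -0.99 ± 0.14, adjusted p = 5.54e-05) and in WT cells (log2 fold change -0.87 ± 0.14, adjusted p = 0.000155), passed no genotype test. Kcnj9, a G protein-gated rectifier, had 0 counts in DKO-labelled cells and 0.229 and 0.465 CPM in WT cells in serum (at least 8.24-fold lower, adjusted p = 0.0128). The Kcnj9 call was lost with unstranded counts (log2 fold change -0.49), and without WT serum replicate 2 or DKO serum replicate 1 (log2 fold change -6.33 to -5.78, adjusted p = 0.0649 to 0.0943).

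**Figure D3:**
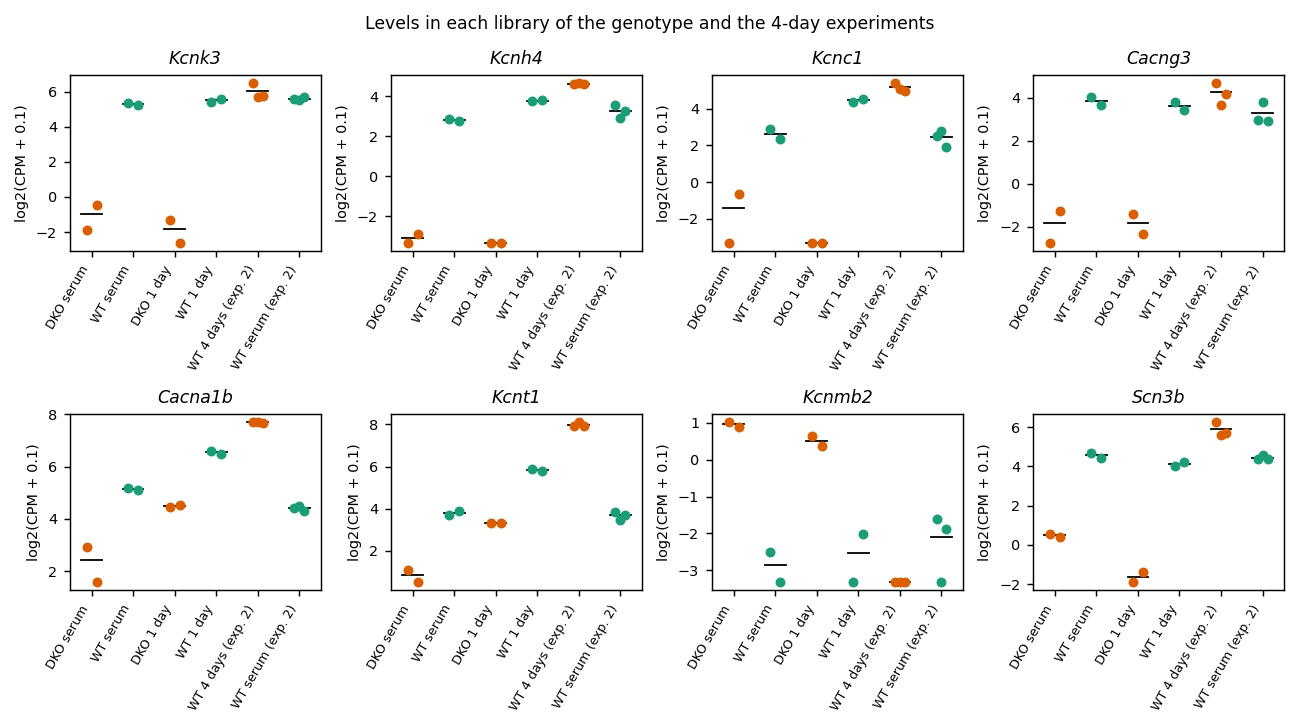
Level of 8 channel genes in each library, as log2(CPM + 0.1), with DKO-labelled cells and WT cells at 4 days in orange, the groups they are set against in green, and a bar at the log2 of the mean plus 0.1. The last 2 columns are the second experiment, which was scaled apart. Kcnk3, Kcnh4, Kcnc1 and Cacng3 lie at the bottom in DKO-labelled cells, Cacna1b and Kcnt1 are higher after withdrawal in both genotypes, and Kcnmb2 is the one of the 8 that is higher in DKO-labelled cells.

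**Figure D4:**
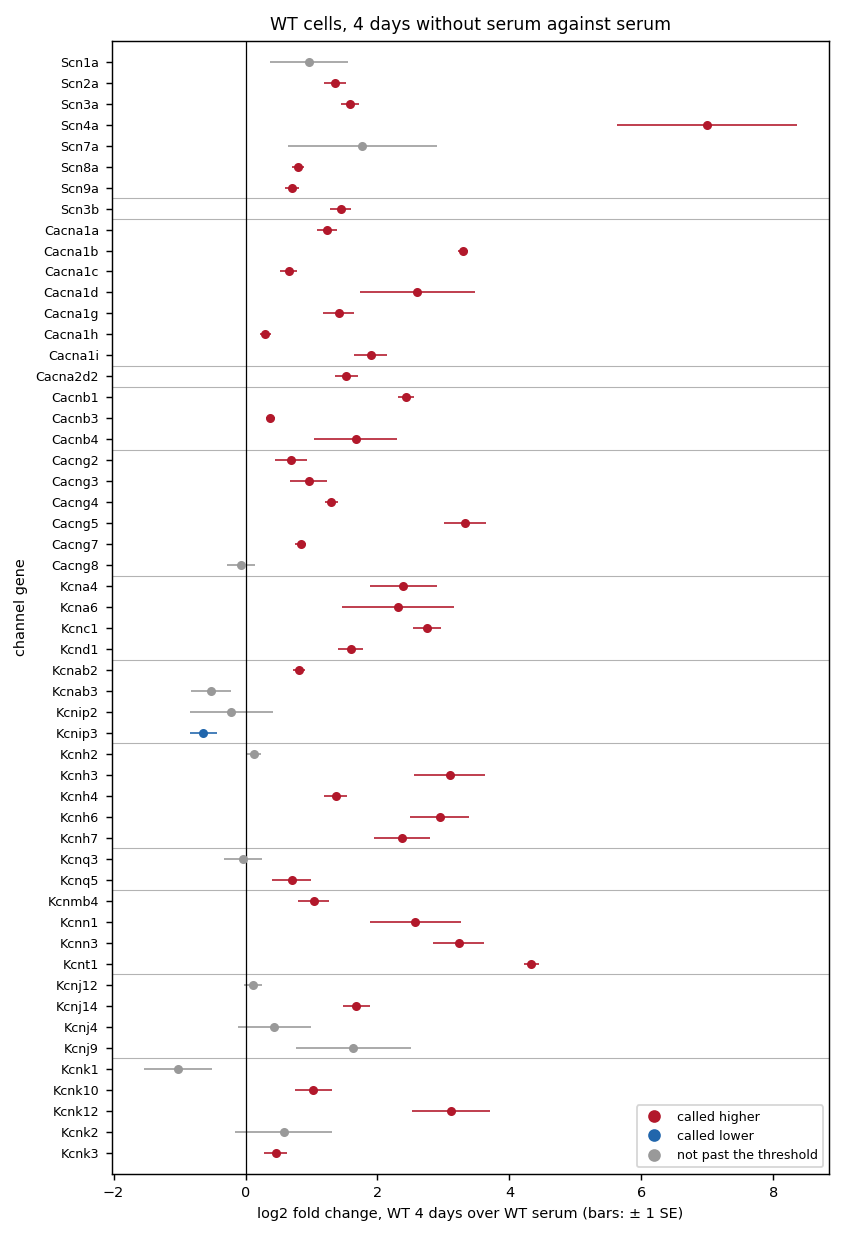
Log2 fold change of channel genes tested, with some tested members not drawn, in WT cells, 4 days without serum over serum, with bars of 1 SE, 3 libraries a group and lines between role classes. Red points (called higher) fill most rows, and among the genes drawn the blue point (called lower) is Kcnip3.

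The mimic experiment took place in DKO-labelled cells, where many of the genes above were low, and 38 members were not tested there. Among sodium pores Scn3a differed most between the miR-138 mimic and pUC19. At 2 days Scn3a had 39.5 and 31.8 CPM with the miR-138 mimic and 5.14 and 6.05 CPM with pUC19 (log2 fold change 2.68 ± 0.15, adjusted p = 9.73e-12). Scn3a had 13.4 and 14.3 CPM with the miR-137 mimic (log2 fold change 1.31 ± 0.16, adjusted p = 1.93e-06 against pUC19). In serum it had 2.48 and 2.67 CPM with miR-138, 2.06 and 2.57 CPM with miR-137 and 2.13 and 1.73 CPM with pUC19, and neither mimic was past the threshold. The effect of miR-138 at 2 days exceeded that in serum (difference of log2 fold changes 2.29 ± 0.30, adjusted p = 1.38e-05), as did that of miR-137 (difference of log2 fold changes 1.08 ± 0.32, adjusted p = 0.0187). The miR-137 call was lost without miR-137 serum replicate 1, pUC19 serum replicate 1 or pUC19 2-day replicate 1 (difference 0.92 to 0.96, adjusted p = 0.0558 to 0.138). Scn1a had 2.76 and 3.02 CPM with miR-138 and 0.886 and 0.884 CPM with pUC19 at 2 days (log2 fold change 1.70 ± 0.32, adjusted p = 0.000133). Scn9a was higher with miR-138 in serum, with 160.2 and 169 CPM against 141 and 134 CPM with pUC19 (log2 fold change 0.26 ± 0.06, adjusted p = 0.000989). It was lower at 2 days, with 113 and 110.5 CPM against 141 and 160.0 CPM (log2 fold change -0.43 ± 0.06, adjusted p = 5.46e-06), and the difference between times was past the threshold (difference of log2 fold changes -0.69 ± 0.09, adjusted p = 7.24e-06). For Scn2a in serum the miR-138 call (log2 fold change 0.43 ± 0.17, adjusted p = 0.0408) was lost without miR-138 serum replicate 2 or pUC19 serum replicate 1 (log2 fold change 0.28 to 0.34, adjusted p = 0.203 to 0.343).

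In serum Scn3b was higher with pUC19 than in the other groups of the third experiment. It had 0.788 and 0.778 CPM with the miR-138 mimic, 0.133 and 0.928 CPM with miR-137, 2.62 and 2.20 CPM with pUC19 and 1.05 and 0.763 CPM with no named transfection. Both mimics were below pUC19 (log2 fold change -1.63 ± 0.39, adjusted p = 0.00144 for miR-138 and log2 fold change -2.22 ± 0.48, adjusted p = 0.000882 for miR-137). The miR-137 value was -1.38 without miR-137 serum replicate 1 and -4.12 without miR-137 serum replicate 2. pUC19 was above no named transfection (log2 fold change 1.42 ± 0.40, adjusted p = 0.0133). Scn3b lost that call without no-transfection serum replicate 2 or pUC19 serum replicate 1 (log2 fold change 1.20 to 1.28, adjusted p = 0.101 to 0.101). In pUC19 cells Scn3b was lower at 2 days, with 0.0590 and 0.544 CPM against 2.62 and 2.20 CPM in serum (log2 fold change -3.06 ± 0.54, adjusted p = 6.25e-05). That value was -5.21 without pUC19 2-day replicate 2. The other members called for pUC19 against no transfection were Kcnmb2 (log2 fold change -0.57 ± 0.13, adjusted p = 0.00261) and Scn9a (log2 fold change -0.17 ± 0.06, adjusted p = 0.0446). The Scn9a call was lost without no-transfection serum replicate 1, pUC19 serum replicate 1 or pUC19 serum replicate 2 (log2 fold change -0.20 to -0.12, adjusted p = 0.0673 to 0.289).

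The alpha2delta gene Cacna2d1, the subunit that binds gabapentin, had the steepest rise with the miR-138 mimic. At 2 days it had 7.36 and 7.92 CPM with miR-138, 0.543 and 0.145 CPM with miR-137 and 0.354 and 0.476 CPM with pUC19. The miR-138 mimic was above pUC19 (log2 fold change 4.19 ± 0.37, adjusted p = 7.83e-09) and above miR-137 (log2 fold change 4.47 ± 0.40, adjusted p = 9.25e-09). In serum it had 0.0394 and 0.222 CPM with miR-138 and 0.0546 and 0.0785 CPM with pUC19, with no call. The interaction was not past the threshold (difference of log2 fold changes 3.22 ± 1.68, adjusted p = 0.166). Cacna1d was likewise higher with miR-138 at 2 days, with 2.51 and 2.16 CPM, 0.233 and 0.218 CPM with miR-137 and 0.413 and 0.612 CPM with pUC19 (log2 fold change 2.20 ± 0.44, adjusted p = 0.000219 against pUC19).

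Cacna1h was lower with miR-138 in serum, with 13 and 14.3 CPM against 33.1 and 38.2 CPM with pUC19 (log2 fold change -1.37 ± 0.13, adjusted p = 2.34e-08). At 2 days Cacna1h had 6.01 and 9.43 CPM with miR-138 against 22.3 and 20.3 CPM with pUC19 (log2 fold change -1.48 ± 0.16, adjusted p = 1.17e-07). With miR-137 Cacna1h was lower in serum, with 17.6 and 21.3 CPM (log2 fold change -0.87 ± 0.13, adjusted p = 1.91e-05). It was not past the threshold at 2 days (log2 fold change -0.01 ± 0.14, adjusted p = 0.967). Cacna1i had 0.245 and 0.216 CPM with miR-138 and 0.413 and 1.43 CPM with pUC19 at 2 days (log2 fold change -1.91 ± 0.61, adjusted p = 0.0101). Cacna1i lost that call without miR-138 2-day replicate 1, miR-138 2-day replicate 2 or pUC19 2-day replicate 2 (log2 fold change -2.01 to -0.82, adjusted p = 0.0508 to 0.362). Its log2 fold change was -0.82 without pUC19 2-day replicate 2. Cacna1g was lower with miR-137 at 2 days (log2 fold change -1.24 ± 0.25, adjusted p = 0.000461) and with miR-138 (log2 fold change -0.69 ± 0.23, adjusted p = 0.013). The miR-138 call was lost without miR-138 2-day replicate 1 or pUC19 2-day replicate 2 (log2 fold change -0.57 to -0.51, adjusted p = 0.0823 to 0.135). Cacna1b was higher with miR-137 at 2 days, with 26.7 and 29.5 CPM against 11.1 and 15.1 CPM with pUC19 (log2 fold change 1.11 ± 0.14, adjusted p = 3.47e-06). With miR-138 it was not past the threshold (log2 fold change 0.13 ± 0.15, adjusted p = 0.478).

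The accessory genes Cacnb3 and Cacng4 parted the mimics. Cacnb3 had 52.4 and 47.3 CPM with miR-138, 99.95 and 100.2 CPM with miR-137 and 90.1 and 98.6 CPM with pUC19 in serum. The miR-138 mimic was below pUC19 (log2 fold change -0.92 ± 0.08, adjusted p = 6.64e-09) and below miR-137 (log2 fold change -1.01 ± 0.08, adjusted p = 7.91e-10). At 2 days miR-137 was above pUC19 (log2 fold change 0.45 ± 0.07, adjusted p = 6.13e-05) and miR-138 below it (log2 fold change -0.44 ± 0.08, adjusted p = 5.19e-05). Cacng4 had 3.39 and 4.08 CPM with miR-138, 7.65 and 9.00 CPM with miR-137 and 5.19 and 5.73 CPM with pUC19 in serum. It was lower with miR-138 (log2 fold change -0.54 ± 0.16, adjusted p = 0.007) and higher with miR-137 (log2 fold change 0.61 ± 0.15, adjusted p = 0.00255) than with pUC19. The miR-138 call was lost without miR-138 serum replicate 1 or pUC19 serum replicate 2 (log2 fold change -0.46 to -0.41, adjusted p = 0.0544 to 0.0801). At 2 days it was higher with miR-137 than with pUC19 (log2 fold change 0.73 ± 0.12, adjusted p = 5.55e-05), and lower with miR-138 than with miR-137 (log2 fold change -1.09 ± 0.12, adjusted p = 3.05e-07). For neither gene did the libraries of one mimic overlap those of the other.

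Among potassium channels, Kcnt1 showed the steepest fall with a mimic. At 2 days it had 1.59 and 1.37 CPM with miR-138, 5.82 and 5.67 CPM with miR-137 and 17.2 and 22.0 CPM with pUC19. Both mimics were below pUC19 (log2 fold change -3.71 ± 0.20, adjusted p = 7.57e-12 for miR-138 and log2 fold change -1.77 ± 0.16, adjusted p = 3.42e-08 for miR-137). In pUC19 cells it had 0.710 and 1.02 CPM in serum, below its 2-day level (log2 fold change 4.53 ± 0.22, adjusted p = 1.13e-12). It was also higher at 2 days than in serum with miR-138 (log2 fold change 2.45 ± 0.38, adjusted p = 1.36e-05) and with miR-137 (log2 fold change 3.90 ± 0.32, adjusted p = 2.02e-09). The miR-138 effect at 2 days was more negative than that in serum (difference of log2 fold changes -2.09 ± 0.55, adjusted p = 0.0075). Kcnt1 lost that call without miR-138 serum replicate 1 (difference -2.06, adjusted p = 0.0542). Kcnn3 was lower with each mimic. It had 7.17 and 10.2 CPM with miR-138, 8.54 and 8.43 CPM with miR-137 and 18.0 and 20.7 CPM with pUC19 at 2 days. Against pUC19 the change was past the threshold for miR-138 (log2 fold change -1.17 ± 0.17, adjusted p = 8.66e-06) and for miR-137 (log2 fold change -1.19 ± 0.18, adjusted p = 2e-05). In serum it was lower with miR-137 (log2 fold change -1.95 ± 0.43, adjusted p = 0.00109) and with miR-138 (log2 fold change -1.22 ± 0.34, adjusted p = 0.00457). The serum call for miR-138 was lost without pUC19 serum replicate 2 (log2 fold change -0.87, adjusted p = 0.0835).

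Kcnmb2 and Kcnq3 also separated the mimics. Kcnmb2 had 2.46 and 2.86 CPM with miR-137, 12 and 10.7 CPM with miR-138 and 8.96 and 10.1 CPM with pUC19 in serum. Without serum for 2 days it had both 2.33 CPM with miR-137, 7.36 and 7.56 CPM with miR-138 and 6.20 and 7.96 CPM with pUC19. It was lower with miR-137 at both times (log2 fold change -1.83 ± 0.17, adjusted p = 5.65e-08 in serum and log2 fold change -1.59 ± 0.19, adjusted p = 1.37e-06 at 2 days). No miR-138 call was made for it (log2 fold change 0.27 ± 0.13, adjusted p = 0.0806 in serum). Kcnq3, a pore of the M current, had 15.1 and 12.6 CPM with miR-137, 6.80 and 5.83 CPM with miR-138 and 4.49 and 5.37 CPM with pUC19 at 2 days (log2 fold change 1.49 ± 0.17, adjusted p = 6.57e-07 for miR-137). From serum to 2 days it was lower in pUC19 cells (log2 fold change -1.16 ± 0.17, adjusted p = 8.85e-06) and with miR-138 (log2 fold change -1.17 ± 0.15, adjusted p = 1.42e-06). With miR-137 it was not past the threshold (log2 fold change 0.15 ± 0.15, adjusted p = 0.383). The miR-137 effect differed between times (difference of log2 fold changes 1.31 ± 0.23, adjusted p = 0.000346). The small Kcnq3 rise with miR-138 in serum (log2 fold change 0.38 ± 0.14, adjusted p = 0.0249) was lost without miR-138 serum replicate 1, miR-138 serum replicate 2 or pUC19 serum replicate 1 (log2 fold change 0.23 to 0.40, adjusted p = 0.0538 to 0.291). Kcnmb4 was higher with miR-138 at 2 days, with 12.7 and 15.1 CPM against 4.19 and 4.42 CPM with pUC19 (log2 fold change 1.69 ± 0.15, adjusted p = 1.14e-08). Kcnu1, known from sperm, had 1.59 and 1.22 CPM with miR-138 against 0.295 and 0.204 CPM with pUC19 (log2 fold change 2.46 ± 0.46, adjusted p = 0.000117).

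Kcnh2 and Kcnab2 changed direction between serum and 2 days with the miR-138 mimic. Kcnh2 had 20.1 and 18.4 CPM with miR-138, 12.8 and 12.1 CPM with miR-137 and 29.2 and 34.2 CPM with pUC19 in serum. Both mimics were below pUC19 (log2 fold change -0.71 ± 0.10, adjusted p = 3.7e-06 for miR-138 and log2 fold change -1.33 ± 0.11, adjusted p = 6.85e-09 for miR-137). After 2 days without serum it had 24.2 and 29.2 CPM with miR-138, 17.7 and 16.6 CPM with miR-137 and 16.1 and 16.4 CPM with pUC19. It was then higher with miR-138 (log2 fold change 0.71 ± 0.11, adjusted p = 8.32e-06) and not past the threshold with miR-137 (log2 fold change 0.08 ± 0.11, adjusted p = 0.611). The difference between times was past the threshold for miR-138 (difference of log2 fold changes 1.42 ± 0.14, adjusted p = 5.22e-07) and for miR-137 (difference of log2 fold changes 1.41 ± 0.16, adjusted p = 3.14e-06). Kcnab2 had 32.0 and 29.5 CPM with miR-138, 23.5 and 25.2 CPM with miR-137 and 51.4 and 54.6 CPM with pUC19 in serum. It was lower than with pUC19 with miR-138 (log2 fold change -0.78 ± 0.09, adjusted p = 2.15e-07) and with miR-137 (log2 fold change -1.12 ± 0.09, adjusted p = 8.88e-09). At 2 days Kcnab2 had 94.1 and 117 CPM with miR-138, 55.7 and 56.3 CPM with miR-137 and 57.5 and 58.2 CPM with pUC19. It was then higher with miR-138 (log2 fold change 0.86 ± 0.08, adjusted p = 1.82e-08), and the difference between times was past the threshold (difference of log2 fold changes 1.65 ± 0.12, adjusted p = 7.19e-09). Kcnab3 was lower with miR-137 in serum, with 0.998 and 1.43 CPM against 4.75 and 4.01 CPM with pUC19 (log2 fold change -1.87 ± 0.29, adjusted p = 2.56e-05).

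Other members called in this experiment stood at low counts or rested on single libraries. Kcnk1, a leak channel, was higher with miR-138 at 2 days (log2 fold change 0.87 ± 0.29, adjusted p = 0.0127) and in serum (log2 fold change 0.76 ± 0.26, adjusted p = 0.0179). The 2-day call was lost without miR-138 2-day replicate 1 or pUC19 2-day replicate 2 (log2 fold change 0.64 to 0.77, adjusted p = 0.0851 to 0.117). The serum call was lost without miR-138 serum replicate 2 or pUC19 serum replicate 2 (log2 fold change 0.62 to 0.68, adjusted p = 0.0884 to 0.113). Kcnq1, the cardiac and epithelial KCNQ channel, had 0.388 and 0.0727 CPM with miR-137 and 1.00 and 1.02 CPM with pUC19 at 2 days (log2 fold change -2.13 ± 0.66, adjusted p = 0.0137). That call was lost without miR-137 2-day replicate 2 (log2 fold change -1.36, adjusted p = 0.178). Its log2 fold change was -3.67 without miR-137 2-day replicate 1 and -1.36 without miR-137 2-day replicate 2. In pUC19 cells Kcnq1 had 0 and 0.0785 CPM in serum, so it was higher at 2 days (31.4-fold higher, exact 95% counting interval 5.24 to 1278, adjusted p = 0.000271). The fitted log2 fold change was 7.16 without pUC19 serum replicate 2. Kcnh6 was higher at 2 days than in serum with miR-138 (log2 fold change 3.94 ± 0.50, adjusted p = 1.37e-06). It then had 1.59 and 2.16 CPM against 0.0788 and 0.148 CPM in serum. Cacna1h was lower at 2 days than in serum with pUC19 (log2 fold change -0.73 ± 0.13, adjusted p = 5.34e-05) and with miR-138 (log2 fold change -0.84 ± 0.16, adjusted p = 0.000114, and -0.53 without miR-138 2-day replicate 1). Kcnq5 was lower at 2 days with miR-137 (log2 fold change -0.95 ± 0.23, adjusted p = 0.00116) and with miR-138 (log2 fold change -0.49 ± 0.21, adjusted p = 0.0473). The miR-138 call was lost without miR-138 serum replicate 1, miR-138 serum replicate 2 or miR-138 2-day replicate 2 (log2 fold change -0.52 to -0.32, adjusted p = 0.0691 to 0.294). Scn1a was lower at 2 days with pUC19 (log2 fold change -0.97 ± 0.35, adjusted p = 0.023). Scn1a lost that call without pUC19 serum replicate 1, pUC19 serum replicate 2, pUC19 2-day replicate 1 or pUC19 2-day replicate 2 (log2 fold change -1.07 to -0.86, adjusted p = 0.0554 to 0.0957).

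Several genes that were higher after withdrawal in the other experiments were also higher at 2 days in the third. Cacna1b had 11.1 and 15.1 CPM at 2 days and 6.39 and 4.63 CPM in serum with pUC19 (log2 fold change 1.21 ± 0.17, adjusted p = 6.38e-06). With miR-137 Cacna1b had 26.7 and 29.5 CPM at 2 days and 5.52 and 6.71 CPM in serum (log2 fold change 2.20 ± 0.16, adjusted p = 5.15e-10). Kcnn3 had 18.0 and 20.7 CPM at 2 days and 1.58 and 2.59 CPM in serum with pUC19 (log2 fold change 3.26 ± 0.22, adjusted p = 1.84e-10). Scn3a in pUC19 cells had 5.14 and 6.05 CPM at 2 days against 2.13 and 1.73 CPM in serum (log2 fold change 1.5 ± 0.22, adjusted p = 9.4e-06). With the miR-138 mimic Cacna2d1 had the widest rise, to 7.36 and 7.92 CPM against 0.0394 and 0.222 CPM in serum (log2 fold change 5.76 ± 0.40, adjusted p = 1.69e-10). Kcnh6 and Cacna1d followed, and Cacna1d had 2.51 and 2.16 CPM against 0.158 and 0.148 CPM (log2 fold change 3.88 ± 0.49, adjusted p = 9.4e-07). Cacna2d1, by contrast with the genes that open this paragraph, had no call at 1 day in either genotype of the first experiment. In the second experiment Cacna2d1 had 0 to 0.257 CPM at 4 days and 0 CPM in serum. Kcnh2 was lower at 2 days in pUC19 cells, with 16.1 and 16.4 CPM against 29.2 and 34.2 CPM in serum (log2 fold change -0.96 ± 0.10, adjusted p = 1.66e-07), as it was at 1 day in the first experiment. With the miR-138 mimic Kcnmb2 was lower at 2 days (log2 fold change -0.61 ± 0.13, adjusted p = 0.000486), as was Scn9a (log2 fold change -0.56 ± 0.06, adjusted p = 1.13e-07).

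Set directly against each other, the mimics differed most at 2 days in Cacna2d1 and Cacna1d, which were higher with miR-138 (log2 fold change 3.34 ± 0.55, adjusted p = 2.68e-05 for Cacna1d). Lower with miR-138 were Kcnt1 (log2 fold change -1.94 ± 0.24, adjusted p = 6.48e-07), Cacna1h (log2 fold change -1.47 ± 0.16, adjusted p = 1.54e-07) and Kcnq3 (log2 fold change -1.12 ± 0.16, adjusted p = 6.44e-06). Also higher with miR-138 at 2 days were Kcnh6 (log2 fold change 2.60 ± 0.49, adjusted p = 0.000158), Kcnmb2 (log2 fold change 1.68 ± 0.19, adjusted p = 2.62e-07) and Kcnmb4 (log2 fold change 1.65 ± 0.16, adjusted p = 2.13e-08). In serum Kcnab3, Kcnmb2, Scn2a and Kcnk1 were higher with miR-138 than with miR-137, with log2 fold changes of 2.12, 2.10, 1.12 and 1.09, in that order. Cacng4, Cacnb3, Cacng8, Kcnj12 and Kcnj4 were lower with miR-138 in serum. The Cacng8 call (log2 fold change -1.0 ± 0.36, adjusted p = 0.0192) was lost without miR-138 serum replicate 1, miR-138 serum replicate 2 or miR-137 serum replicate 2 (log2 fold change -1.06 to -0.89, adjusted p = 0.0508 to 0.114). The Kcnj4 call (log2 fold change -0.69 ± 0.29, adjusted p = 0.0407) was lost without miR-138 serum replicate 2, miR-137 serum replicate 1 or miR-137 serum replicate 2 (log2 fold change -0.75 to -0.47, adjusted p = 0.0897 to 0.253). At 2 days the Kcnj4 call (log2 fold change -1.04 ± 0.33, adjusted p = 0.00996) was lost without miR-138 2-day replicate 1 or miR-137 2-day replicate 2 (log2 fold change -0.95 to -0.90, adjusted p = 0.0655 to 0.0769).

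**Figure D5:**
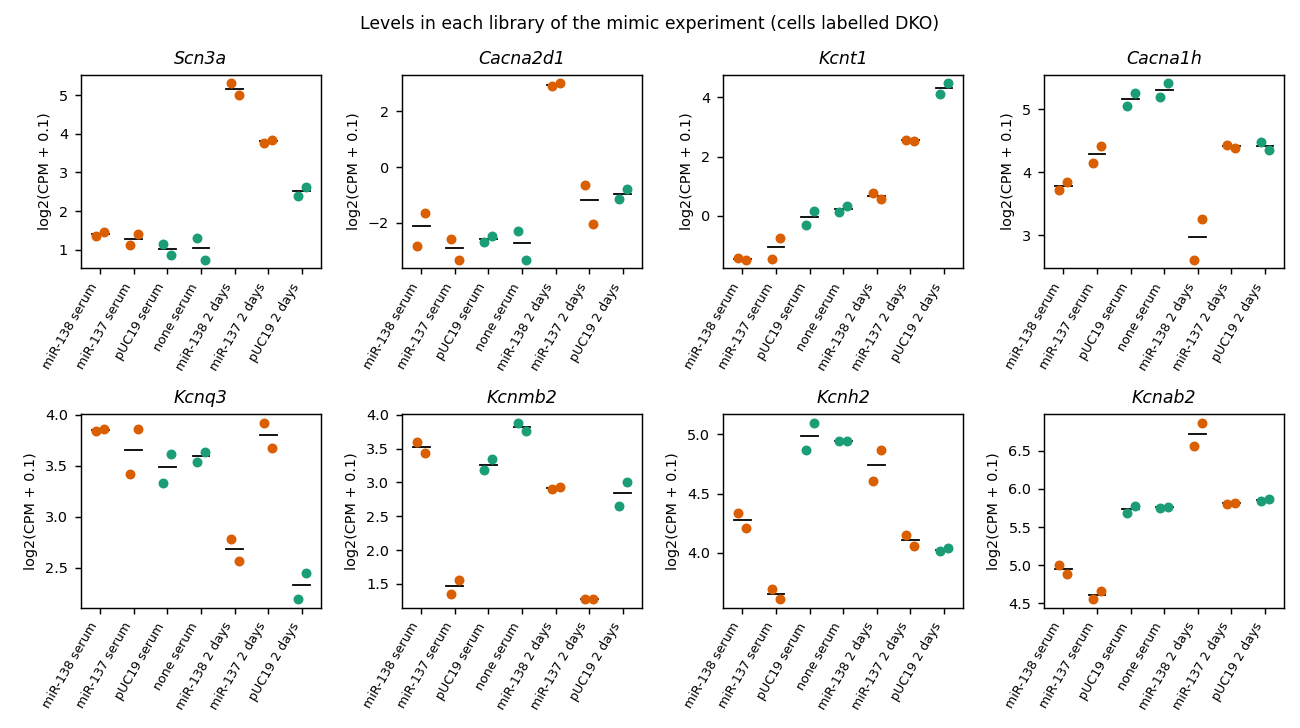
Level of 8 channel genes in each library of the mimic experiment, as log2(CPM + 0.1), in cells labelled DKO, with mimics in orange, pUC19 and no named transfection in green, and a bar at the log2 of the mean plus 0.1. Scn3a and Cacna2d1 are highest and Kcnt1 and Cacna1h lowest with miR-138 at 2 days among the 2-day groups, Kcnmb2 is lowest with miR-137 at both times, and Kcnh2 and Kcnab2 are low with both mimics in serum.

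A list of 41 partners and regulators of these channels, which the choice by symbol leaves out, was counted the same way. In DKO-labelled cells 16 of 31 tested were lower and 3 higher in serum, against 21.5% and 19.2% of all genes, with a median log2 fold change of -0.67. At 1 day 15 were lower and 6 higher, against 23% and 21.9% of all genes. In WT cells at 4 days 18 of 32 were higher and 1 lower, against 36.2% and 34.7% of all genes, with a median of 0.69. Rest, the repressor of neuronal genes, had 66.4 and 71.2 CPM in DKO-labelled and 34.8 and 38.4 CPM in WT cells in serum (log2 fold change 0.91 ± 0.09, adjusted p = 1.22e-06). It had 31.4 to 39.8 CPM in WT cells at 4 days against 22.2 to 28.4 CPM in serum (log2 fold change 0.49 ± 0.14, adjusted p = 0.00728). Any link between Rest and the channel genes was not tested. Hcn3, a pacemaker pore, had 1.91 and 1.92 CPM in DKO-labelled and 29.8 and 32.8 CPM in WT cells in serum (log2 fold change -4.03 ± 0.17, adjusted p = 1.89e-10). Unc80, of the sodium leak channel complex, had 0.0735 and 0.392 CPM in DKO-labelled and 26.1 and 29.0 CPM in WT cells (log2 fold change -7.04 ± 0.36, adjusted p = 1.05e-09). Cntnap2, an axonal partner of Shaker channels, had 0.0490 and 0.0712 CPM in DKO-labelled and 2.59 and 3.84 CPM in WT cells (log2 fold change -5.69 ± 0.69, adjusted p = 1.41e-05). Gem, a small GTPase that lowers calcium current, had 29.7 and 32.4 CPM in DKO-labelled and 13.3 and 14.4 CPM in WT cells, higher in DKO-labelled cells (log2 fold change 1.16 ± 0.12, adjusted p = 3.48e-06). Amigo1, the Shab partner, had 49.9 to 76.4 CPM at 4 days and 5.17 to 9.52 CPM in serum (log2 fold change 2.95 ± 0.22, adjusted p = 3.36e-08). Rest and these partners were named after their values were seen. With the mimics at 2 days 7 of 26 partners were higher and 10 lower for miR-138 against pUC19, where 30.9% and 31.1% of all genes were higher and lower, so the shares of partners were near the background. For miR-137 12 were higher and 3 lower, against 20.5% and 22.2% of all genes.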

How the data were processed

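RNA-seq libraries of the 3 experiments were used; small RNA libraries were not analysed here. The deposited tables are the authors' unnormalised read counts for each gene, from STAR and mm9 per the submitters' processing notes. STAR's version is not given in the sources used here. Of the columns, column 4, the strand of dUTP libraries, was taken; column 3 held 3.18 to 3.81% of reads in columns 3 and 4. Rows that name no gene held 23.3 to 34.2% of reads and were left out. Gene identifiers were matched to symbols, 32620 of 37310 (87.4%).

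Each experiment was fitted alone with all its libraries in edgeR 4.0.16 (filterByExpr with minimum count 10 and minimum total 15, TMM scaling, two-sided quasi-likelihood test), adjusted by Benjamini-Hochberg over all genes, at a false discovery rate of 0.05. Values after ± are SE of log2 fold changes. Against a group with 0 counts a bound was set from 3 counts over that group, and against 1 to 3 counts a ratio with its exact 95% interval is given; both cover counting error only. Overlapping genes and near-identical copies could share reads. The procedure was tested on simulated data. Results of some members are not reported here, though counts over members hold them.

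Alternatives were RLE scaling, DESeq2 1.42.0, no filter, a replicate block, unstranded counts, the compared libraries alone and each library left out; a lone library left in a group is assumed to vary like the others. Genes were named by a rule: up to 8 called members a direction for genotype and WT comparisons and 5 elsewhere, with at least 1 CPM in a group and no overlap, members at 0 in one group, and a set list. The members, lists and rule were chosen with earlier results of these data known. The interactions of mimic and withdrawal were chosen after seeing the data. The rule's choice by counts per kb was not made, since transcript lengths were not on hand. Motifs were searched in RefSeq promoter windows with Python 3.11.15, and figures drawn with matplotlib 3.10.9.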

Additional observations from a re-analysis of the deposited data

Results flagged for a closer look

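Members whose change after withdrawal differed between DKO-labelled and WT cells, by a test of the difference itself, are given as the log2 fold change at 1 day in DKO-labelled cells less that in WT cells, ± SE. For Cacnb1 it was -1.47 ± 0.31 (adjusted p = 0.00834) and was lost without WT serum replicate 2 (adjusted p = 0.0527) or DKO 1-day replicate 2 (adjusted p = 0.0627). For Cacng5 it was -4.34 ± 0.98 (adjusted p = 0.0124), -8.00 without DKO 1-day replicate 1 and was lost without WT 1-day replicate 2 (adjusted p = 0.0676) or DKO 1-day replicate 2 (adjusted p = 0.0583). For Kcnab2 it was -0.65 ± 0.15 (adjusted p = 0.0139) and was lost without WT serum replicate 2 (adjusted p = 0.0995), WT 1-day replicate 1 (adjusted p = 0.058), WT 1-day replicate 2 (adjusted p = 0.0737) or DKO 1-day replicate 2 (adjusted p = 0.101). For Kcnc1 it was -7.61 ± 2.06 (adjusted p = 0.0348), -1.83 without DKO serum replicate 2 and was lost without WT serum replicate 1 (adjusted p = 0.0675), WT serum replicate 2 (adjusted p = 0.0981), WT 1-day replicate 1 (adjusted p = 0.0656), WT 1-day replicate 2 (adjusted p = 0.074), DKO serum replicate 2 (adjusted p = 1.0), DKO 1-day replicate 1 (adjusted p = 0.121) or DKO 1-day replicate 2 (adjusted p = 0.138). For Kcnj14 it was -2.14 ± 0.50 (adjusted p = 0.0148) and was lost without WT serum replicate 1 (adjusted p = 0.0639), WT 1-day replicate 1 (adjusted p = 0.0922), DKO 1-day replicate 1 (adjusted p = 0.0765) or DKO 1-day replicate 2 (adjusted p = 0.0519). For Scn3b it was -2.07 ± 0.40 (adjusted p = 0.005). The fitted values of Kcnc1 and Cacng5 lean on DKO-labelled libraries with 0 to 3 counts at 1 day, and so are no bounds.

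Members whose difference between the miR-138 mimic and pUC19 was not the same at 2 days and in serum, by the same kind of test, follow. They are given as the log2 fold change against pUC19 at 2 days less that in serum. For Cacna2d2 it was 1.78 ± 0.61 (adjusted p = 0.0349) and was lost without miR-138 serum replicate 1 (adjusted p = 0.144), pUC19 serum replicate 1 (adjusted p = 0.338), miR-138 2-day replicate 2 (adjusted p = 0.092), pUC19 2-day replicate 1 (adjusted p = 0.0571) or pUC19 2-day replicate 2 (adjusted p = 0.0711). For Cacnb3 it was 0.48 ± 0.11 (adjusted p = 0.00265). For Kcnab2 it was 1.65 ± 0.12 (adjusted p = 7.19e-09). For Kcnh2 it was 1.42 ± 0.14 (adjusted p = 5.22e-07). For Kcnmb4 it was 1.76 ± 0.21 (adjusted p = 5.52e-06). For Kcnt1 it was -2.09 ± 0.55 (adjusted p = 0.0075) and was lost without miR-138 serum replicate 1 (adjusted p = 0.0542). For Scn1a it was 1.40 ± 0.43 (adjusted p = 0.0202) and was lost without pUC19 serum replicate 2 (adjusted p = 0.0649), miR-138 2-day replicate 2 (adjusted p = 0.0536), pUC19 2-day replicate 1 (adjusted p = 0.0563) or pUC19 2-day replicate 2 (adjusted p = 0.0505). For Scn3a it was 2.29 ± 0.30 (adjusted p = 1.38e-05). For Scn8a it was 0.48 ± 0.13 (adjusted p = 0.00805). For Scn9a it was -0.69 ± 0.09 (adjusted p = 7.24e-06).

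The same differences for the miR-137 mimic follow. For Cacna1b it was 0.99 ± 0.25 (adjusted p = 0.00621) and was lost without pUC19 serum replicate 1 (adjusted p = 0.0912). For Cacna1h it was 0.86 ± 0.19 (adjusted p = 0.00267). For Cacnb3 it was 0.36 ± 0.11 (adjusted p = 0.0186) and was lost without miR-137 serum replicate 1 (adjusted p = 0.0603), miR-137 serum replicate 2 (adjusted p = 0.0542), pUC19 serum replicate 2 (adjusted p = 0.0763), miR-137 2-day replicate 2 (adjusted p = 0.0717) or pUC19 2-day replicate 1 (adjusted p = 0.0552). For Kcnab2 it was 1.07 ± 0.13 (adjusted p = 5.39e-06). For Kcnab3 it was 1.24 ± 0.40 (adjusted p = 0.0313), 0.75 without miR-137 2-day replicate 2 and was lost without miR-137 serum replicate 1 (adjusted p = 0.154), pUC19 serum replicate 1 (adjusted p = 0.0899), miR-137 2-day replicate 2 (adjusted p = 0.293) or pUC19 2-day replicate 2 (adjusted p = 0.073). For Kcnh2 it was 1.41 ± 0.16 (adjusted p = 3.14e-06). For Kcnq3 it was 1.31 ± 0.23 (adjusted p = 0.000346). For Scn2a it was 1.08 ± 0.28 (adjusted p = 0.00908). For Scn3a it was 1.08 ± 0.32 (adjusted p = 0.0187) and was lost without miR-137 serum replicate 1 (adjusted p = 0.0902), pUC19 serum replicate 1 (adjusted p = 0.138) or pUC19 2-day replicate 1 (adjusted p = 0.0558). For Scn3b it was 3.66 ± 0.86 (adjusted p = 0.00422), 5.56 without miR-137 serum replicate 2 and 5.80 without pUC19 2-day replicate 2. From serum to 2 days mean Scn3b went from 2.41 to 0.302 CPM with pUC19 and from 0.531 to 0.788 CPM with miR-137. Much of its difference thus lay in the pUC19 groups. Kcnab2, Kcnh2, Scn3a and Cacnb3 were in both mimic sets, and the sets share their pUC19 libraries. These 2 interaction tests were chosen after the data were seen.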

How the results depend on the processing

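Of 192 recounts of called channel genes under the alternatives, 181 stayed within 1.5 times the count given. With single libraries left out the count ran from 34 to 39 for DKO-labelled against WT cells in serum, 35 to 37 at 1 day, 14 to 17 for WT cells at 1 day, 11 to 22 for DKO-labelled cells at 1 day, 2 to 12 for the interaction, 42 to 45 for WT cells at 4 days and 1 to 2 for pUC19 against no transfection. For pUC19 against no transfection the 3 calls became 1 with DESeq2, 2 with RLE scaling and 5 with unstranded counts, and the cause was not tested. Of 4155 refits of called values, 427 lost the call and 0 changed sign. The median over all genes tested lay within 0.148 of 0 on the log2 scale in every setting. The replicate block gave 39 calls for DKO-labelled against WT cells in serum, 42 at 1 day and 44 for WT cells at 4 days, and changed no count by 1.5 times. Same-numbered libraries shared only a number: their deviations correlated by -0.0260 to 0.0940. A member with few counts was not testable at these depths, and levels near 1 count show nothing of lower expression.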
